A study of Homo sapiens with 6 samples.

Results

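The binding sites examined here were all rows of 3 deposited peak lists that lay on human chromosome 20 with a midpoint beyond position 25000000 on hg19. They numbered 1894 of the 74158 peaks of the series, namely 444 of 3262 peaks of the transcription factor KLF5 in 16HBE14o- cells, 92 of 1510 KLF5 peaks in Calu-3 cells and 1358 of 69386 peaks of the transcription factor CEBPB in Calu-3 cells. The region was chosen by its KLF5 peak counts, since it held many more KLF5 peaks of 16HBE14o- than of Calu-3, so these numbers are given as a description without a test. The label of the region as the long arm was not exact. An empty stretch of 3.25 Mb, from 26211007 to 29456575, held no peak of any list and is where hg19 places the centromere gap, as general knowledge. Of the 1894 peaks, 18 lay before that stretch and 1876 after it. The whole region is called the arm below.

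The data came from chromatin immunoprecipitation followed by sequencing (ChIP-seq), which recovers the DNA bound by a protein. The 6 samples formed 3 groups of 2, all from untreated human bronchial epithelial lines kept in DMEM with 10% FBS. Calu-3 is a lung adenocarcinoma line and 16HBE14o- a virally immortalised bronchial line, and each is a single line. KLF5 was precipitated with the same commercial antibody in both 16HBE14o- samples and in the second Calu-3 sample, but with another, rabbit antibody in the first Calu-3 sample, and CEBPB with its own antibody in Calu-3 alone. The effect of the antibody thus cannot be told apart from that of the line in full. Each group had 1 list made from both of its samples, so no value below carries a spread between samples and no test was run. Intervals cover counting error only, with each entry taken as independent. Many entries overlap or lie close together, so the intervals may be too narrow. No list gives read counts, which leaves the depth unknown.

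KLF5 is a Krüppel-like zinc finger protein that binds GC-rich and CACCC-type elements and is known for its part in the growth and renewal of epithelia. CEBPB is a basic leucine zipper protein known for roles in differentiation, acute-phase and inflammatory gene expression, and its own gene lies on the arm. The arm also carries genes that airway biologists follow, among them those for the protease inhibitor SLPI, the laminin chain LAMA5 and the survival factor BCL2L1. Gene names beside positions in the text come from general knowledge of the hg19 map. No file used here gives hg19 gene positions, so no distance to a gene and no exon, intron or promoter call was computed.

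The arm held 13.6% of the 16HBE14o- KLF5 list (exact 95% interval 12.5 to 14.8), 6.09% of the Calu-3 KLF5 list (4.94 to 7.42) and 1.96% of the CEBPB list (1.86 to 2.06). The rest of chromosome 20, up to 25 Mb, held 15 KLF5 peaks of 16HBE14o-, 7 KLF5 peaks of Calu-3 and 309 CEBPB peaks. No KLF5 peak of either line lay close to the bound. In 16HBE14o- the last peak outside it was at 23402061 to 23402404 (signal 32.1) and the earliest inside at 25176209 to 25176552 (signal 29.8). In Calu-3 these peaks were at 23342470 to 23342749 (signal 67.6) and 26188740 to 26189019 (signal 31.8). The CEBPB peaks on either side were at 24998052 to 24998333 (signal 3.97) and 25057389 to 25057559 (signal 4.76). Signals are the authors' own peak values and are used only within 1 list. They are given as percentiles of the whole list, with 100 for its strongest peak.

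Along the arm, 16HBE14o- KLF5 peaks were present in most 1 Mb bins and were crowded into a few of them. Of the 36 bins of the arm with any peak, 31 held more KLF5 peaks of 16HBE14o- than of Calu-3, compared with 30.2% of all bins of the genome that held any peak. Only the bin from 26 to 27 Mb held more of Calu-3, with 2 peaks against 1, where the genome-wide share was 13.0%. The bin from 46 to 47 Mb held 3 of each. The genome-wide shares are over 2850 bins, of which 861 held more of 16HBE14o- and 370 more of Calu-3. Only 1094 bins held a 16HBE14o- KLF5 peak and 765 a Calu-3 one, so many held neither. The gap to the arm thus also reflects how many bins hold any KLF5 peak. Over the 36 bins, the 16HBE14o- list had a median of 9.50 peaks per bin (range 0 to 48), the Calu-3 KLF5 list 2 (0 to 14) and the CEBPB list 39 (5 to 72). These comparisons used the same counts that had singled out the region and are descriptive.

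The 16HBE14o- peaks gathered at 2 places, between 48 and 50 Mb and at the end of the chromosome. The fullest bins were those from 62 to 63 Mb with 48 peaks, from 48 to 49 Mb with 42, from 60 to 61 Mb with 39, from 49 to 50 Mb with 31 and from 61 to 62 Mb with 29. Together they held 189 of the 444 peaks (42.6%). The bin from 62 Mb was the fullest of the 1094 bins of the genome with a 16HBE14o- KLF5 peak, where the median was 2, and the bins from 48 and 60 Mb came next. In the same 5 bins the Calu-3 KLF5 list had 7, 8, 6, 5 and 3 peaks. The excess of 16HBE14o- over Calu-3 KLF5 peaks was 41 in the bin from 62 Mb, 34 from 48 Mb, 33 from 60 Mb and 26 in each of the bins from 49 and 61 Mb. These 5 bins made up 45.5% of the excess of 352 peaks. That excess is a raw count from lists of unequal size. With KLF5 lists of equal size the arm held 179 peaks of 16HBE14o- and 92 of Calu-3. After overlapping entries of the full lists were merged it held 392 and 91.

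Calu-3 KLF5 peaks had a different fullest bin, from 30 to 31 Mb, with 14 peaks beside 16 of 16HBE14o-. It was the only bin of the arm with 10 or more Calu-3 KLF5 peaks, of 8 such bins in the genome. The bins from 48, 34, 62 and 43 Mb followed with 8, 7, 7 and 6 peaks, and the bin from 60 Mb also held 6. In 7 bins 16HBE14o- had KLF5 peaks and Calu-3 had none. The fullest of these ran from 58 to 59 Mb, with 22 peaks of 16HBE14o- and a median signal percentile of 18.3, which places most of them low in their list. Bins without Calu-3 KLF5 are common in the genome. Of its 2850 bins with any peak, 765 held a Calu-3 KLF5 peak and 1094 a 16HBE14o- one. The counts of both KLF5 lists nevertheless rose and fell together over the 36 bins (Spearman rho 0.71), while the 16HBE14o- counts had a rho of 0.14 and the Calu-3 KLF5 counts of 0.04 with CEBPB. All bins are counted from the same 3 lists, so these are descriptions with no p-value.

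**Figure D1:**
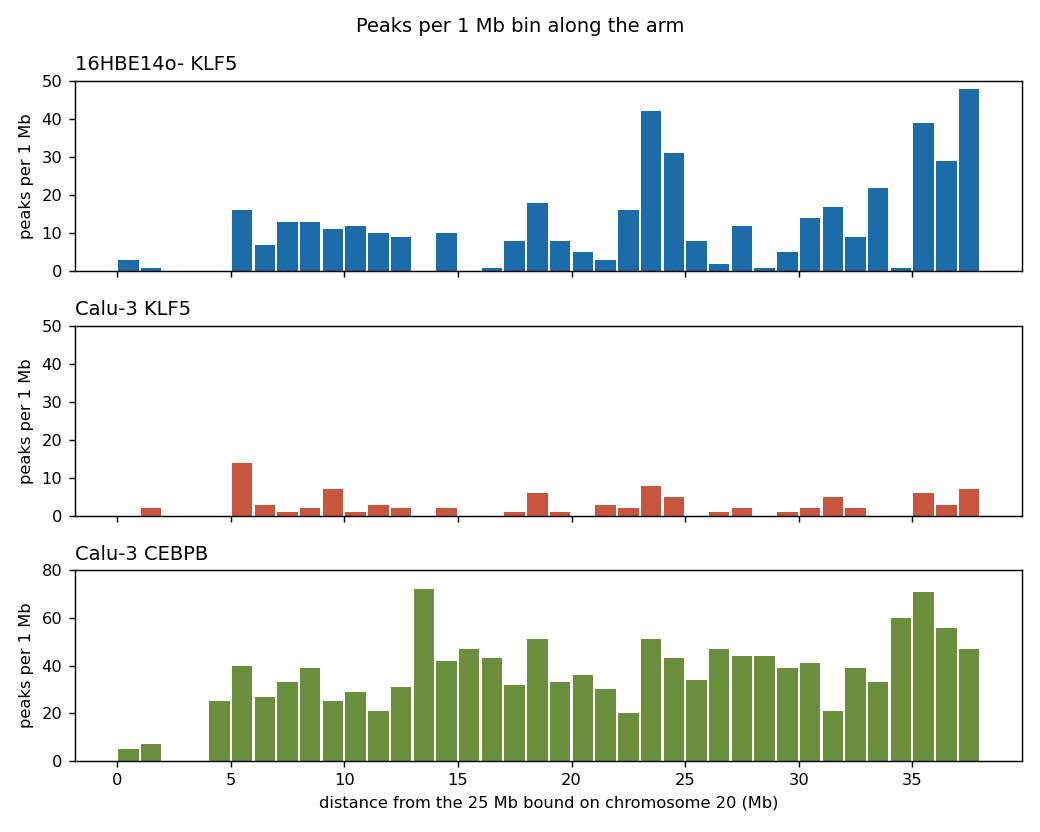
Peaks per 1 Mb bin (vertical axis) against the distance from the 25 Mb bound in Mb (horizontal axis) for the 3 lists, 1 bar per bin. The 16HBE14o- KLF5 bars stand highest 23 to 25 Mb and 35 to 38 Mb from the bound, reaching 48, whereas no Calu-3 KLF5 bar exceeds 14 and CEBPB bars reach 72.

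CEBPB peaks were spread more evenly. Their fullest bins were those from 38 to 39 Mb with 72 peaks, from 60 to 61 Mb with 71, from 59 to 60 Mb with 60, from 61 to 62 Mb with 56, and from 43 to 44 Mb and 48 to 49 Mb with 51 each. The fullest 5 held 22.8% of the CEBPB peaks of the arm. The bins from 60, 61 and 48 Mb were also among the 5 fullest of 16HBE14o- KLF5, and those from 43, 48 and 60 Mb among the fullest of Calu-3 KLF5. The bin from 38 to 39 Mb had no KLF5 peak in either line, and the bin from 59 to 60 Mb had 1, in 16HBE14o-. Between 40 and 42 Mb, 90 CEBPB peaks stood beside a single KLF5 peak. The CEBPB peaks in these stretches leaned to low signal, with median percentiles of 29.1 from 38 Mb, 32.1 from 40 Mb and 28.9 from 41 Mb. The median was 35.7 from 59 Mb and 37.4 over the arm. In the 5 fullest bins of 16HBE14o- KLF5, from 62, 48, 60, 49 and 61 Mb, the CEBPB medians were 35.4, 59.5, 28.6, 55.6 and 23.9. Low CEBPB medians were thus not limited to bins poor in KLF5.

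The 5 longest stretches without a KLF5 peak of either line show the parts poor in KLF5 at finer scale. The longest, from 26190184 to 30102030, spanned the empty stretch and held 35 CEBPB peaks. The next was 1.53 Mb long, from 39969620 to 41494746, and held 67 CEBPB peaks, of which 1 was in the top 10% of the CEBPB list. A stretch of 1.40 Mb from 37735966 to 39135179 held 93 CEBPB peaks, none in that top class, the highest at percentile 85.2. The other 2 adjoined, from 52874023 to 53871590 and from 53871935 to 54797224, with 41 and 38 CEBPB peaks and 1 of the top class in each. With the depth unknown, a site missing from a list may still have been bound.

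The 16HBE14o- and CEBPB peaks of the arm leaned towards low ranks and the Calu-3 KLF5 peaks did not. The median percentile on the arm was 38.9 for 16HBE14o- KLF5 (quartiles 18.0 and 71.5), against 51.1 for the rest of that list. For CEBPB it was 37.4 (14.9 and 70.2) against 47.7, and for Calu-3 KLF5 55.4 (34.6 and 82.5) against 49.7. The lowest 25% of each list accounted for 155 of the 444 16HBE14o- peaks (34.9%), 476 of the 1358 CEBPB peaks (35.1%) and 19 of the 92 Calu-3 peaks (20.7%). At the upper end, 45 of the 16HBE14o- peaks (10.1%) and 129 of the CEBPB peaks (9.50%) were in the top 10%, where each whole list has 10.0%. Of the Calu-3 KLF5 peaks 16 (17.4%) were in that class. When the lists were restricted to q-values up to 0.05 and ranked anew, the 16HBE14o- median was 50.3. With ranks by q-value in place of signal the CEBPB median was 52.6. Under that ranking the 16HBE14o- median was 38.8, and under the q-value filter the CEBPB median was 36.7. The low 16HBE14o- median thus depended on the filter and the low CEBPB median on the ranking.

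**Figure D2:**
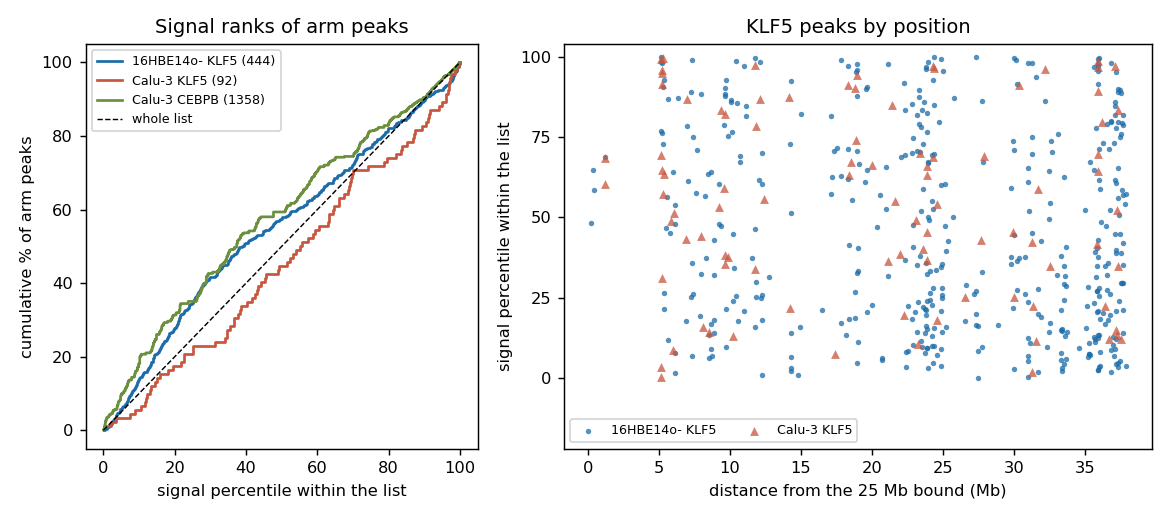
Left, cumulative percentage of the peaks of the arm (vertical axis) against signal percentile within the list (horizontal axis), with a dashed line for a whole list. Right, each KLF5 peak by distance from the 25 Mb bound in Mb and signal percentile, with circles for 16HBE14o- and triangles for Calu-3. The 16HBE14o- and CEBPB curves lie above the dashed line at low percentiles, with medians of 38.9 and 37.4, and the Calu-3 curve below it, with a median of 55.4.

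The lowest ranks of the 16HBE14o- list belonged in part to doubled entries. On the arm, 101 of its 444 entries (22.7%) overlapped another entry of the list, compared with 14.8% elsewhere, and the 52 that lay beside a stronger entry had a median percentile of 7.07. In the Calu-3 KLF5 list 2 entries (2.17%) overlapped each other, against 4.94% elsewhere, and in the CEBPB list none of the 1358 did. After such entries were merged, 392 16HBE14o- peaks remained on the arm, with a median percentile of 42.4. Widths said little about single sites, since 439 of the 444 16HBE14o- peaks were 344 bp wide and 91 of the 92 Calu-3 KLF5 peaks 280 bp. CEBPB peaks ranged from 125 to 644 bp.

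The strongest KLF5 sites of the arm ranked near the top of the whole lists. In 16HBE14o- the highest was at 49407291 to 49407524, with a signal of 177 and rank 3 of the 3262 peaks. A Calu-3 KLF5 peak of percentile 96.6 lay over it, and no CEBPB peak. The second, at 30102075 to 30102264 with a signal of 161, falls at the start of HM13, which encodes signal peptide peptidase. There the Calu-3 KLF5 peak was at percentile 69.3 and the CEBPB peak at 74.3. The third, at 52364830 to 52364920 with a signal of 135, had no Calu-3 KLF5 peak but a CEBPB peak of percentile 94.0.

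The fourth of 16HBE14o-, at 36771836 to 36771956 with a signal of 119, lies within TGM2, the gene of tissue transglutaminase, an enzyme that crosslinks proteins. Calu-3 KLF5 stood at percentile 97.4 and CEBPB at 99.2 there, so this site was near the top of all 3 lists. The fifth, at 55043580 to 55043687 with a signal of 108, had a Calu-3 KLF5 peak of percentile 25.2 only and a CEBPB peak of percentile 87.9. Of the 5 strongest 16HBE14o- sites 4 had a Calu-3 KLF5 peak, but of the 12 strongest only 5 did. The share was 31.4% in the upper 25% of the list and 10.4% over all 444 peaks.

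The 5 strongest Calu-3 KLF5 sites were all listed in 16HBE14o- too, as were 11 of the 12 strongest and 19 of the 26 in the upper 25% of the list. The share was 46.7% over all 92 Calu-3 KLF5 peaks of the arm and 23.6% over the whole Calu-3 list. The highest, at 30292420 to 30292699 with a signal of 112 and rank 5 in its list, lies within BCL2L1, which encodes the anti-apoptotic protein Bcl-xL. The 16HBE14o- peak over it was at percentile 90.6 and no CEBPB peak overlapped it. The second, at 30160678 to 30160957 with a signal of 96.2, had a 16HBE14o- entry of percentile 98.5, a weaker overlapping entry of 77.0 and a CEBPB peak of 98.0. The third, at 60936996 to 60937126 with a signal of 85.7, lies within LAMA5, and the fourth, with a signal of 64.6, was the TGM2 site. The fifth, at 62165342 to 62165621 with a signal of 64.4, lies within PTK6, a non-receptor tyrosine kinase of epithelia. Its 16HBE14o- peak was at percentile 85.8, and it had no CEBPB peak.

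Each of the 5 strongest CEBPB sites of the arm overlapped a KLF5 peak of at least 1 line. Over all 1358 CEBPB peaks of the arm, 6.77% overlapped a 16HBE14o- and 2.80% a Calu-3 KLF5 peak. In the whole list the shares were 1.03% and 0.938%. The highest, at 55363349 to 55363674 with a signal of 27.8, had a Calu-3 KLF5 peak of percentile 91.3 and none of 16HBE14o-. The second, at 48384791 to 48385174 with a signal of 26.2, had KLF5 peaks of both lines at percentiles 70.0 in Calu-3 and 70.4 in 16HBE14o-. The third, at 62372201 to 62372583 with a signal of 22.3, also had both, at 83.6 in Calu-3 and at 79.8 and 3.56 in 2 overlapping entries of 16HBE14o-. The fourth, at 49297055 to 49297381 with a signal of 20.8, had a Calu-3 KLF5 peak of percentile 68.8 alone. The fifth, at 52790697 to 52791022 with a signal of 19.9, lies close to the start of CYP24A1, the enzyme that inactivates vitamin D. It had a 16HBE14o- KLF5 peak of percentile 86.2 and none of Calu-3. The next 3 CEBPB peaks by signal, at 48900402, 46228550 and 39950316, had no KLF5 peak in either line. Nor did 95 of the 129 CEBPB peaks of the arm in the top 10% of the CEBPB list. Lack of KLF5 was common throughout, with 1249 of all 1358 CEBPB peaks of the arm. Outside the arm it held for 6302 CEBPB peaks of the top 10%, a class of 6940 peaks in the whole list.

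A further pair of CEBPB sites, picked out after their values were seen, lay at genes of interest in the airway. At 43883148 to 43883791, at the start of SLPI, which encodes an antiprotease of airway secretions, the CEBPB signal was 16.0 at percentile 99.2. KLF5 peaks of both lines overlapped it, at 43883113 to 43883456 with percentile 95.2 in 16HBE14o- and at 43883168 to 43883447 with percentile 74.1 in Calu-3. Close to ID1, an inhibitor of basic helix-loop-helix factors, a CEBPB peak at 30198535 to 30198904 had a signal of 18.0 and percentile 99.5. The Calu-3 KLF5 peak there was at percentile 94.97 and the 16HBE14o- peak at 76.4. A second Calu-3 site at 30196358 to 30196637, with KLF5 at percentile 96.0 and CEBPB at 97.5, had no 16HBE14o- KLF5 peak.

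Sites shared by both lines ranked higher than the others. The arm held 46 overlapping pairs of KLF5 peaks, with a median distance of 31.0 bp between summits and 37 of the 46 within 100 bp. In 16HBE14o- the shared peaks had a median percentile of 87.0 and the other 398 one of 35.1, and in Calu-3 the medians were 69.7 and 45.4. Of the 46 pairs, 18 were in the upper 25% of both lists, and 12 differed by more than 50 percentile points. The pair with the highest mean percentile was the LAMA5 site, at 98.7 in Calu-3 and 99.2 in 16HBE14o-. The sites at 30160678 (99.2 and 98.5), in TGM2 (97.4 and 99.7), at 49407281 (96.6 and 99.9) and a second LAMA5 site at 60934561 (96.9 and 97.2) followed. Across pairs the percentiles had a Spearman rho of 0.27, a description of 46 pairs that share their 2 lists.

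From the Calu-3 side the overlap was more frequent on the arm than in the rest of the list, and from the 16HBE14o- side the comparison depended on which peaks were kept. Of the 92 Calu-3 peaks 43 overlapped a 16HBE14o- KLF5 peak (46.7%, exact 95% interval 36.3 to 57.4), against 22.1% (19.9 to 24.3) elsewhere and 23.6% in the whole list. Of the 444 16HBE14o- peaks 46 were shared with Calu-3 (10.4%, 7.69 to 13.6), against 11.4% (10.3 to 12.7) elsewhere and 11.3% in the whole list. The Calu-3 share is counted against the 16HBE14o- list whose crowding chose the region, so it is no independent result. With both KLF5 lists limited to their 1510 strongest peaks it was 41.3%, against 16.6% elsewhere. The 16HBE14o- share was then 21.8% (16.0 to 28.6), against 17.4% (15.4 to 19.6) elsewhere. With KLF5 peaks of score 1000 only, a choice made after seeing the data, it was 20% (13.7 to 27.6) against 13.4% (11.3 to 15.7). Sharing rose with rank, from 4 of 155 16HBE14o- peaks in the lowest 25% of the list (2.58%, 0.708 to 6.48) to 32 of 102 in the highest (31.4%, 22.5 to 41.3). For Calu-3 it rose from 4 of 19 (21.1%, 6.05 to 45.6) to 19 of 26 (73.1%, 52.2 to 88.4).

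**Figure D3:**
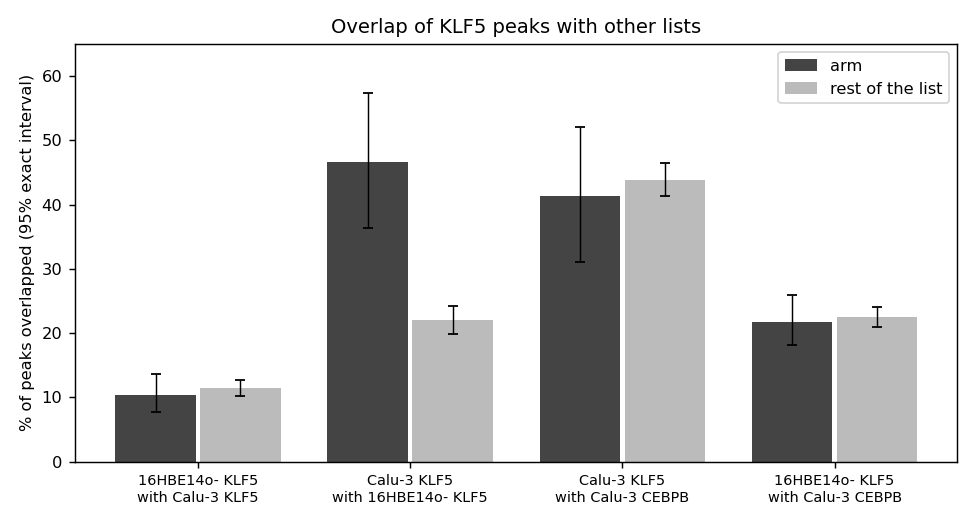
Percentage of KLF5 peaks overlapped by at least 1 bp by a peak of another list (vertical axis), for the arm (dark bars) and the rest of the list (light bars), with exact 95% binomial intervals. The Calu-3 KLF5 share with 16HBE14o- is 46.7% on the arm and 22.1% elsewhere, while for the other 3 pairs, with all peaks kept, the value elsewhere lies within the interval of the arm.

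With all peaks kept, CEBPB met KLF5 on the arm about as often as in the rest of each KLF5 list. A CEBPB peak overlapped 38 of the 92 Calu-3 KLF5 peaks (41.3%, 31.1 to 52.1), against 43.9% (41.3 to 46.5) elsewhere and 43.7% in the whole list. It overlapped 97 of the 444 16HBE14o- peaks (21.8%, 18.1 to 26.0), against 22.5% (21.0 to 24.1) elsewhere and 22.4% in the whole list. The 16HBE14o- share moved with the choice of peaks. It was 30.7% (24.1 to 38) with KLF5 lists of equal size, against 24.6% (22.3 to 27.1) elsewhere, and 35.0% (27.1 to 43.5) at score 1000, against 25.5% (22.7 to 28.4). When summits had to lie within 100 bp it was 11.0% (8.28 to 14.3), against 14.2% (12.9 to 15.5). The Calu-3 share was 55.1% (40.2 to 69.3) at score 1000, against 44.9% (41.0 to 48.8). The interval for the 92 Calu-3 peaks is wide, and a difference smaller than it was not detectable. In Calu-3 the share went from 1 of 19 KLF5 peaks in the lowest 25% by signal (5.26%, 0.133 to 26.0) to 16 of 26 in the highest (61.5%, 40.6 to 79.8). In 16HBE14o- it went from 14.8% (9.64 to 21.4) to 32.4% (23.4 to 42.3).

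Put together, 21 Calu-3 KLF5 peaks of the arm had both other lists over them, 22 had 16HBE14o- KLF5 alone, 17 had CEBPB alone and 32 had neither. These were 22.8%, 23.9%, 18.5% and 34.8% of the 92 peaks, where the same classes made up 8.60%, 13.5%, 35.3% and 42.7% of the Calu-3 peaks elsewhere. Their median percentiles on the arm were 83.4, 64.7, 64.8 and 34.5 in that order. Of the 16HBE14o- peaks, 22 (4.95%) had both other lists, 24 (5.41%) Calu-3 KLF5 alone, 75 (16.9%) CEBPB alone and 323 (72.7%) neither. Their medians were 90.6, 84.2, 47.1 and 33.0. Peaks with neither thus stood lowest in both lists. Elsewhere in the 16HBE14o- list the same classes made up 4.47%, 6.96%, 18.1% and 70.5%, close to their shares on the arm. Peaks with neither had a median of 47.9 there.

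Seen from CEBPB, 92 of its 1358 peaks on the arm overlapped a 16HBE14o- KLF5 peak (6.77%, 5.50 to 8.24) and 38 a Calu-3 KLF5 peak (2.80%, 1.99 to 3.82). The whole-list shares were 1.03% and 0.938%, and the arm has more KLF5 peaks to meet by the way it was chosen. CEBPB peaks at Calu-3 KLF5 alone had a median percentile of 95.1 (10 of 17 in the top 10% of the list), those at KLF5 of both lines 85.2 (9 of 21) and those at 16HBE14o- KLF5 alone 54.7 (15 of 71). The 1249 CEBPB peaks without KLF5 had a median of 35.3, with 95 in the top 10% (7.61%, 6.20 to 9.22). Elsewhere the same 4 classes had medians of 97.3, 85.4, 61.3 and 47.7.

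KLF5 peaks of 16HBE14o- came in close groups. With neighbouring midpoints at most 10 kb apart, 263 of the 444 peaks (59.2%) lay in 94 groups of 2 or more, compared with 29.2% of the peaks in the rest of the list. After overlapping entries were merged the share on the arm was 47.2%. The median spacing between neighbours was 22.8 kb in 16HBE14o- and 135 kb in Calu-3, where 30 of the 92 peaks (32.6%) lay in 12 groups, against 21.5% elsewhere. A denser list forms more groups, and the arm was chosen for its density. In bins of 10 or more peaks outside the arm, 53.9% of 362 16HBE14o- peaks were grouped, against 64.3% of the 373 in such bins of the arm. Density was not matched there, since the 362 lay in 25 bins and the 373 in 18. Both shares count overlapping entries.

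The largest group of either line lay at LAMA5, which encodes the laminin alpha chain of epithelial basement membranes. From 60925021 to 60945393 it held 12 16HBE14o- KLF5 peaks, 5 of Calu-3 and 5 of CEBPB. Strong and weak 16HBE14o- sites were mixed there, with percentiles of 97.9 at 60925021, 97.2 at 60934428, 99.2 at 60936904, 91.4 at 60942357 and 95.6 at 60945050, and from 2.54 to 42.9 at the other 7. Of those 7, the entries at 60933400 and 60933620, at percentiles 12.5 and 2.54, overlapped each other. The Calu-3 peaks were at percentiles 89.4, 69.7, 96.9, 64.4 and 98.7 and all lay in the first 12.1 kb, up to 60937126. The 2 strong 16HBE14o- sites beyond that point had no Calu-3 KLF5 peak. Of the 5 CEBPB peaks, 4 ranked at or below percentile 32.9, and the fifth, at 60936929 to 60937144 on the strongest KLF5 site, was at 83.2.

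A group of 6 16HBE14o- peaks from 60982325 to 61002860 lay nearer the chromosome end, with no Calu-3 KLF5 peak in it. Its entries at percentiles 28.2 and 3.46 overlapped each other. Its strongest peak, at 61002517 to 61002860, had a signal of 102 and percentile 99.5, and its 3 CEBPB peaks were at percentiles 14.3, 33.8 and 9.79. At PTK6 and its neighbour SRMS, another tyrosine kinase gene, 8 16HBE14o- peaks from 62165378 to 62177666 had percentiles from 4.54 to 95.3. The entry at 4.54 overlapped a stronger one at 39.8. Calu-3 had 2, at percentiles 97.3 and 15.0, and CEBPB none. The order of strength differed between the lines. The Calu-3 maximum, at 62165342, met a 16HBE14o- peak of percentile 85.8, and the 16HBE14o- maximum, at 62176552, met no Calu-3 peak.

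Beyond the CEBPB gene itself, on the side towards the chromosome end, 7 16HBE14o- peaks spanned 26.3 kb from 48832565 to 48858868. Their percentiles ran from 9.41, in an entry that overlapped one of 35.8, to 96.7, with the highest at 48832565 (96.7) and 48838117 (96.2). The latter met a Calu-3 CEBPB peak at 48838041 to 48838353 with a signal of 15.2 and percentile 99.1. Calu-3 KLF5 had 1 peak in the group, at 48853965 to 48854244 and percentile 66.0, which overlapped the 16HBE14o- peak of percentile 82.6.

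At SDC4, which encodes the cell-surface heparan sulfate proteoglycan syndecan-4, 6 16HBE14o- peaks ran from 43965290 to 43977313. The strongest, at 43976970 to 43977313 with percentile 97.8, lies at the start of the gene and had a CEBPB peak of percentile 79.9 but no Calu-3 KLF5 peak. The next, at 43974251 with percentile 96.0, was shared with the single Calu-3 KLF5 peak of the group, at percentile 94.2. The other 4 were at percentiles 87.9, 4.81, 32.8 and 70.7 and were listed in 16HBE14o- alone. The entries at 87.9 and 4.81 overlapped each other, so they need not be separate sites.

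The largest Calu-3 group was the one at LAMA5, and the other 2 of the 3 taken by size, and then by signal, lay in the bin from 30 Mb. Within BCL2L1, 3 Calu-3 peaks from 30292420 to 30308258 were at percentiles 99.7, 57.4 and 63.4. The outer 2 met 16HBE14o- peaks of percentiles 90.6 and 92.7, and a CEBPB peak of percentile 97.8 lay between sites, at 30294587 to 30294821, without touching a KLF5 peak. The group from 30154580 to 30160957 had 1 strong Calu-3 peak (percentile 99.2) and 2 overlapping entries at percentiles 3.51 and 0.397, the latter the lowest Calu-3 KLF5 peak of the arm.

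**Figure D4:**
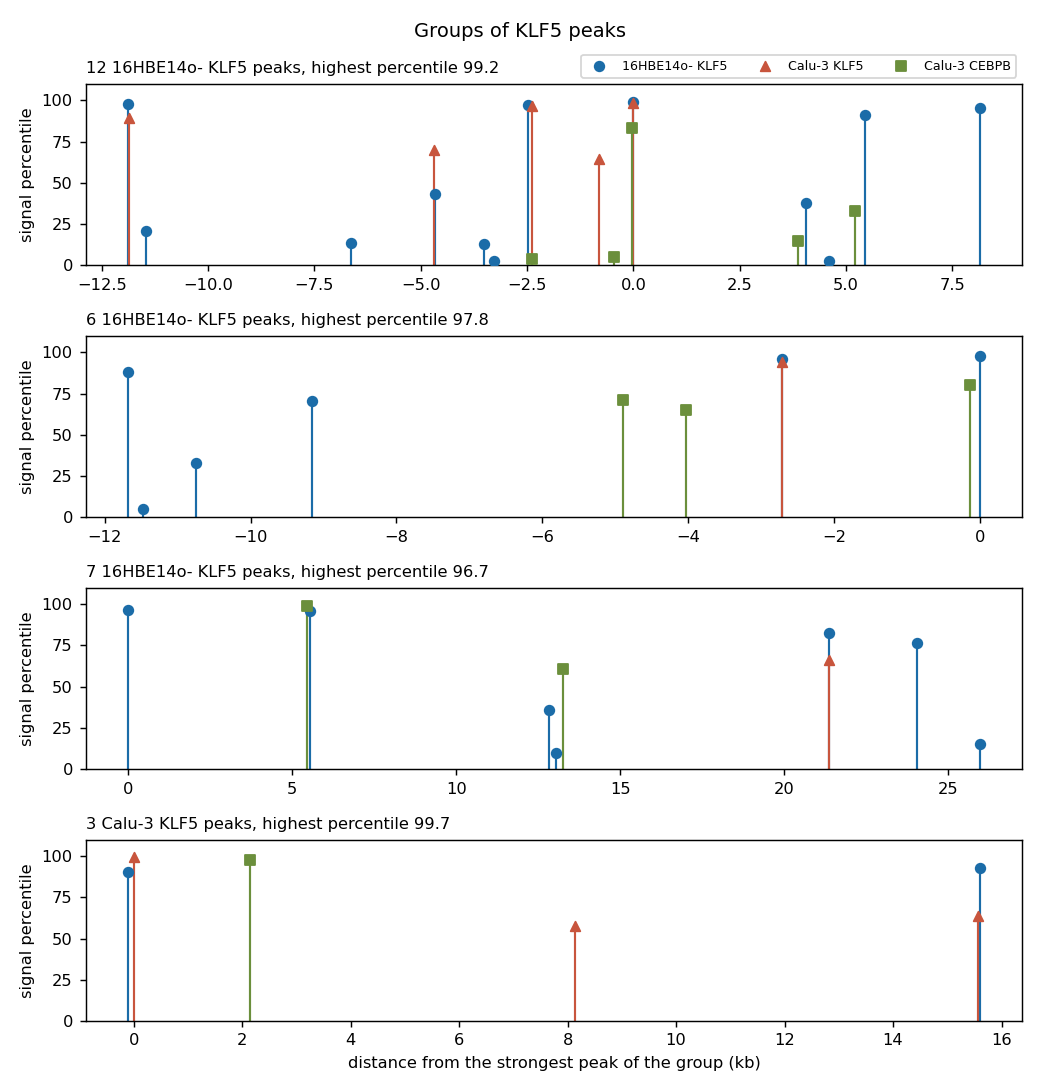
Signal percentile within the list (vertical axis) of every peak in 4 groups against the distance in kb from the strongest peak of the group (horizontal axis), with circles for 16HBE14o- KLF5, triangles for Calu-3 KLF5 and squares for CEBPB. From top to bottom the groups are those at LAMA5, at SDC4, beyond the CEBPB gene and within BCL2L1. Most Calu-3 triangles sit beside a 16HBE14o- circle, and several 16HBE14o- peaks above percentile 90 have no triangle beside them.

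Dense bins of 16HBE14o- KLF5 peaks were not limited to the arm. Of the 43 bins of the genome with 10 or more such peaks, 18 were on the arm, 7 on chromosome 11, 4 on chromosome 14, and the other 14 on 7 more chromosomes. The fullest outside the arm, on chromosome 11, held 36. Peaks in the dense bins of the arm had a median percentile of 36.7 (quartiles 16.4 and 73.2), against 50.3 (19.9 and 74.4) in dense bins elsewhere and 52.6 in the other bins of the arm. Calu-3 KLF5 overlapped 10.5% of them (7.54 to 14), against 11.6% (8.49 to 15.4) in dense bins elsewhere, and CEBPB 22.0% (17.9 to 26.5) against 18.0% (14.1 to 22.3). None of these differences was tested.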

How the data were processed

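ChIP-seq peak lists for 3 groups of 2 samples were analysed. The authors made 1 list for each group from both samples, per the series' design text. Per the file headers the lists are IDR peaks on hg19, a build also named in the submitters' processing notes. Aligner, caller, filters and controls are not given in the sources used here. The deposited signal and score of each peak are the authors' values, whose normalization was not stated, and the deposited −log10 p-value and q-value were read by their place in the peak format. The KLF5 lists carry no p-value.

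Members were rows of chromosome 20 with midpoints beyond 25 Mb. Signal was turned into percentiles within each list, with ties averaged. Peaks overlapped when they shared at least 1 bp. Counts were made in 1 Mb bins and in groups with midpoints at most 10 kb apart. A q-value filter of 0.05 and 8 other alternatives were tried. Shares carry exact (Clopper-Pearson) 95% intervals and no test was run. The text names the 5 strongest peaks and fullest bins of each list, the 5 highest shared pairs, the 5 largest 16HBE14o- and 3 largest Calu-3 groups, the 5 longest stretches without KLF5, and the peaks at the bound. The members and lists were chosen with earlier results of these data known. Counts at lists of genes had been planned and were not made, since no hg19 annotation was used here, and no hg19 sequence is printed. Overlap and grouping were tested on simulated data. Python 3.11.15, numpy 2.4.6, scipy 1.17.1, pandas 2.3.3 and matplotlib 3.10.9 were used.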

Additional observations from a re-analysis of the deposited data

How the results depend on the processing

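No paired analysis was possible because each group had 1 list made from both of its samples, so neither a replicate block nor leaving out a replicate could be applied. Over 64 recomputed values of 11 results, 50 stayed within the interval of the reported value or, for the count of bins, within 1.5 times it, and 14 moved outside. Some of the 50 could not move. KLF5 lists of equal size left the Calu-3 KLF5 and CEBPB lists whole, which repeated 6.09%, 1.96% and 41.3%. Merging left the CEBPB list as it was, which repeated 1.96% and 37.4. The share of the 16HBE14o- KLF5 list on the arm, 13.6%, was 12.1% with a q-value of 0.05 or less, 11.6% in the 50% of higher signal and 11.9% with KLF5 lists of equal size. That of CEBPB, 1.96%, was 2.07% with the q-value filter and 1.62% in the 50% of higher signal. The share of 16HBE14o- peaks with a Calu-3 KLF5 peak, 10.4%, was 21.8% with KLF5 lists of equal size and 20% with KLF5 peaks of score 1000 only, an alternative chosen after seeing the data. The share of 16HBE14o- peaks with CEBPB, 21.8%, was 30.7% with KLF5 lists of equal size and 35.0% at score 1000. It was 11.0% when summits had to lie within 100 bp. When all 3 lists, CEBPB included, were cut to their 50% of higher signal, it was 16.9%. With the CEBPB list whole, the share was 25.3% for 16HBE14o- peaks from percentile 50 to 75 and 32.4% for those above 75. That of Calu-3 KLF5 peaks with CEBPB, 41.3%, was 55.1% at score 1000. The median percentile of 16HBE14o- KLF5, 38.9, was 50.3 with the q-value filter, and that of CEBPB, 37.4, was 52.6 when ranked by q-value. Filters on signal or score leave fewer peaks, 49 Calu-3 and 140 16HBE14o- KLF5 peaks at score 1000. The cause of the changes was not tested. The count of bins with more 16HBE14o- peaks ranged from 22 to 34. A bound at 30 Mb and the merging of overlapping entries moved none of the 11 results outside these limits.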
